A study of Mus musculus with 4 samples.

Results

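Small nucleolar RNA (snoRNA) genes and their host genes were examined in ATAC-seq data from mouse subcutaneous white adipose tissue. The members are the genes of the deposited gene table whose name begins with Snord, Snora, Scarna or Snhg, and they number 95 of 11993 genes. They comprise 56 Snord, 28 Snora, 3 Scarna and 8 Snhg genes; RefSeq lists 160 mouse genes under these names. ATAC-seq uses the Tn5 transposase to cut and tag DNA that is not packed away in nucleosomes, so a peak marks an open region. Nuclei came from frozen, ground fat of wild-type (WT) mice, and the groups were 2 female and 2 male libraries with no other treatment or allele named. The labels leave out strain, age, pooling of animals and whether each library stands for an animal of its own. The p-values therefore measure the spread between these libraries, which may be technical. The value of a gene is a peak height, the scaled number of tags at a peak, averaged by the authors over the merged open regions linked to that gene. Read totals per library were not used here, and the depth behind a height is unknown.

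Most snoRNAs guide chemical modification of ribosomal RNA. Box C/D snoRNAs (Snord) direct 2′-O-methylation by fibrillarin, box H/ACA snoRNAs (Snora) direct pseudouridylation by dyskerin, and small Cajal body RNAs (Scarna) do the same for spliceosomal RNAs. In mammals nearly all of them are cut out of the introns of longer host transcripts, and the host promoter therefore drives the snoRNA. Hosts are either protein-coding genes, often for ribosomal proteins and translation factors, or noncoding genes such as the small nucleolar RNA host genes (Snhg), whose spliced exons carry no conserved protein. Many hosts start transcription inside a run of pyrimidines, the TOP motif of growth-regulated translation genes. A peak height reports the openness of a region and not the amount of a snoRNA.

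The open regions of the members were chiefly host promoters. Of the 95 members, 84 lay within a gene on their own strand, in 58 different hosts, and 73 carried exactly the same regions as that host in the table. The members held 82 merged regions in 64 distinct sets, and 52 members shared a set with another member, so genes with the same set carry the same measurement. Counts given below over members include such repeats, and counts over sets take each set a single time. The largest set had 5 members, Snhg12 with Snora16a, Snora44, Snora61 and Snord99 in its introns. In 46 of the 64 sets a region lay within 1 kb of the RefSeq start of the host. Of the rest, 10 had a region within 1 kb of the member's own start and 8 had it at neither. Some of the 46, such as the sets of Snord104 and Snord49b, also lay within 1 kb of the member's own start. Of all members, 94 shared a region with a gene that is no member, and Snhg5 was the exception.

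Promoter stretches of 10 host genes are shown because the members' heights were read from the regions around them: 5 Snhg genes, the noncoding host of Snord49a, Snord49b and Snord65, the host with the longest pyrimidine run, and the hosts of Snord111, Snora31 and Snord69, whose heights stood near the ends of the range. Each runs 5′ to 3′ on the strand of the gene, from 100 bases before to 20 bases from the start site, and was taken from RefSeq promoters of build GRCm38.p6 (mm10). Capitals mark a run of at least 6 C or T letters that touches the 5 bases on either side of the start, and the letters TATAAA or TTTATA; the stretches of Tpt1 and Gnl3 hold neither.
Snhg1 (chr19:8723387-8723506, plus strand): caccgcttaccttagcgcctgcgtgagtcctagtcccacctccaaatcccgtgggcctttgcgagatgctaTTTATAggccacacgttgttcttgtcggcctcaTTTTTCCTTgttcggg
Snhg5 (chr9:88522878-88522997, minus strand): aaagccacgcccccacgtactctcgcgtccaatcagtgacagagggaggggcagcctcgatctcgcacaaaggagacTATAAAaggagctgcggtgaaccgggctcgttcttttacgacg
Snhg7 (chr2:26640225-26640344, minus strand): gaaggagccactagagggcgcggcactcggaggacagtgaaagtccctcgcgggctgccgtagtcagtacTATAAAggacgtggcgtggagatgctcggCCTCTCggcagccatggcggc
Snhg9 (chr17:24719946-24720065, minus strand): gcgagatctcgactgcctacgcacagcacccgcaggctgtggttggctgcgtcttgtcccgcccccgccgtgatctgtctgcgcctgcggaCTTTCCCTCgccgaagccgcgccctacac
Snhg12 (chr4:132308578-132308697, plus strand): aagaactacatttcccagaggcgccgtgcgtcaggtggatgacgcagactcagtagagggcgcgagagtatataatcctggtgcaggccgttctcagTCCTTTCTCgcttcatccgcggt
2410006H16Rik (chr11:62602777-62602896, plus strand): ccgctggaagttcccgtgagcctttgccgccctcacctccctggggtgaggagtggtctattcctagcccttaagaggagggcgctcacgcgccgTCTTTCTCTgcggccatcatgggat
Rpl27a (chr7:109519095-109519214, plus strand): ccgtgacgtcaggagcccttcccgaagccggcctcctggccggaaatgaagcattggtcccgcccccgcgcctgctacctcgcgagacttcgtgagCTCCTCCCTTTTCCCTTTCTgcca
Sf3b3 (chr8:110846784-110846903, minus strand): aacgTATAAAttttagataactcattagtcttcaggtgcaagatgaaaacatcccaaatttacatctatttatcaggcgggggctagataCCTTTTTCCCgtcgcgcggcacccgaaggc
Tpt1 (chr14:75845156-75845275, plus strand): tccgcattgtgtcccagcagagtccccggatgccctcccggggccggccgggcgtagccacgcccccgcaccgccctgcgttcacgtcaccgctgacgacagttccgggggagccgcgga
Gnl3 (chr14:31019112-31019231, minus strand): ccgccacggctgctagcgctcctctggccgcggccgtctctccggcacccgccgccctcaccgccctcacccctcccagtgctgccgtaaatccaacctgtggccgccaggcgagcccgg

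Pyrimidine runs at the start were found chiefly in noncoding hosts. A promoter sequence was matched for 46 of 51 host and Snhg genes with a region within 1 kb of the start; Snhg6, Rpl23a and Hspa8 are among those with no entry. A run of 6 or more pyrimidines at the start was present in 7 of 14 noncoding host promoters (50%) and in 12 of the 46 (26.1%). By class of protein-coding host it was present in 3 of 13 ribosomal protein hosts (23.1%), 2 of 11 other coding hosts (18.2%), 0 of 4 translation factor hosts and 0 of 4 nucleolar protein hosts. Among all 32851 RefSeq promoters the share was 20.2%, and among the 8928 promoters within 1 kb of an open region of these data it was 19.2%. The longest run, of 20 letters, lay in Rpl27a, a ribosomal protein gene that hosts Snora3. The TATAAA motif, searched on both strands over 300 bases (250 before to 50 after the start), was found in 11 of 46 host promoters (23.9%) and 5 of 14 noncoding host promoters (35.7%), against 5.33% of promoters near an open region and 13.6% of all promoters. Other motifs were closer to the promoters near an open region. GGGCGG was found in 71.7% of host promoters against 70.0%, CCAAT in 41.3% against 40.9%, CACGTG in 13.0% against 10.6% and CCGGAAGT in 13.0% against 9.59%. None of these motifs contains another, and a CCAAT or TATAAA was counted on either strand. Median GC content was 61.8% in host promoters and 62.7% in promoters near an open region. These matches describe letters and were not tested; RefSeq starts can lie some bases from the used start, which bears on the pyrimidine count.

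**Figure D1:**
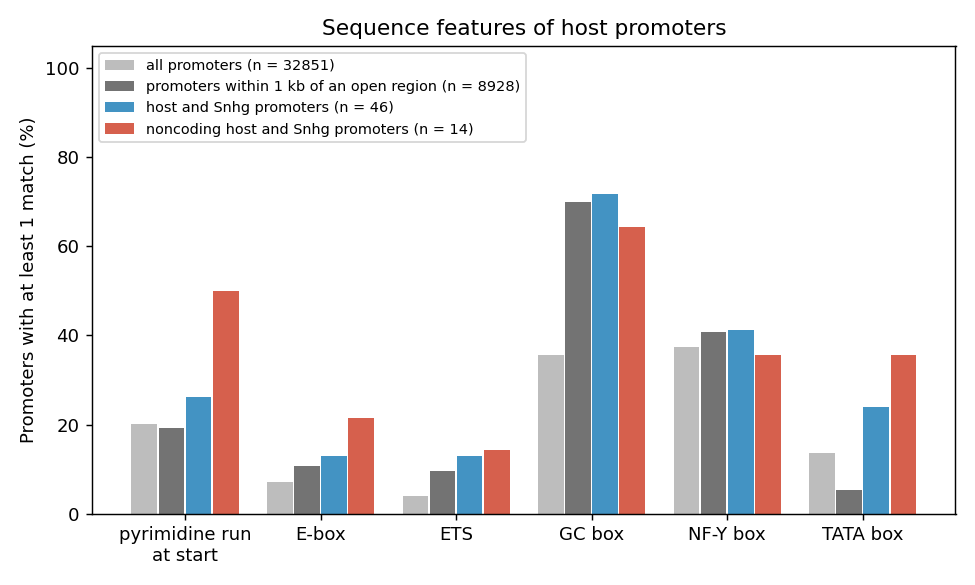
Percent of promoters (y axis) with a pyrimidine run of at least 6 letters at the start or with at least 1 match of each motif on either strand (x axis), for all promoters, promoters near an open region, host and Snhg promoters, and the noncoding ones among them. The pyrimidine run and the TATA box bars are higher for noncoding hosts (50% and 35.7%) than for promoters near an open region (19.2% and 5.33%), while the GC box bars differ little.

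No member passed the threshold between the sexes. With limma's test with trend on log2(height + 9) and Benjamini-Hochberg adjustment over all 11993 genes, 0 of 95 members were lower and 0 were higher in males at an adjusted p under 0.05, where 0.592% of all genes were lower and 0% higher. The smallest adjusted p of a member was 0.104, for Snora31. At an unadjusted limma p under 0.05, 26 members in 17 sets were lower in males, 27.4% of the members against 31.4% of all genes, and 0 were higher against 0.00834%. With 2 libraries a sex, the smallest two-sided p an exact permutation test allows is 0.33. The members shifted downward with the whole table: their median log2 difference, male minus female, was -0.56, and that of all genes was -0.63. Relative to all genes the members' median was 0.07 (0.06 with each set taken a single time), with members from -0.51 to 0.80, and 62 of the 95 lay above the median of all genes. With libraries centred on their medians the members' median was 0.0625, and 9 named sets changed sign, so directions given below hold for the heights as deposited. Both males were below both females in 67 members (70.5%), against 76.4% of all genes, and in 47 of the 64 sets (73.4%), against 77.2% of all sets, and both males were above both females in 0 members, against 0.35%.

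Heights were lower across the whole table in the male libraries, and male 2 stood apart. Peak intervals numbered 10238 and 8022 in females 1 and 2 and 5484 and 4049 in males 1 and 2, and the median interval was 284 bp wide in male 2 against 160 to 171 bp in the others. Over the 64 member sets the median height was 40.8, 30.6, 24.2 and 17.8 in that order, and over all 9357 region sets it was 38.0, 29.6, 23.3 and 14.4. Among the member sets, heights of female 1, female 2 and male 1 were ranked alike, with Spearman's rho from 0.895 to 0.912 across sets, while rho of male 2 with the others was from 0.391 to 0.468 (over all genes 0.822 to 0.850 and 0.584 to 0.643). Genes are not independent replicates, and the sets share their libraries. Without male 2 the median difference of the members was -0.36. Without male 1, 43 members were called lower, when 53.3% of all genes were (0 members and 0.233% of genes were called higher), with the lone male 2 assumed to vary like the females. Summed marker heights of the cell types were lower in males as well. The summed height of the 5 measured of 10 adipocyte markers (Cfd, Cidec, Pparg, Lipe and Retn) was 188 and 162 in the females and 93.7 and 59.8 in the males, and Adipoq, Plin1, Lep, Fabp4 and Adrb3 are not in the gene table. The 3 measured of 7 mammary epithelium markers (Cldn3, Spint2 and St14) summed to 74.0, 57.5, 14.1 and 7.34. The sums of the 3 measured of 5 endothelial markers were 72.0, 57.1, 37.5 and 28.3. Summed heights of 1 of 6 macrophage, 1 of 4 lymphocyte, 2 of 5 muscle and 3 of 5 progenitor markers likewise had both males under both females. Among the progenitor markers, Ly6a went the other way from Pdgfrb and Cd34, with 19 and 9.86 in females and 9.90 and 23.5 in males (log2 difference 0.11). The part of cell composition, depth and library quality in the member values was not tested, and fewer cells of a type and less open chromatin per cell cannot be told apart in bulk tissue.

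**Figure D2:**
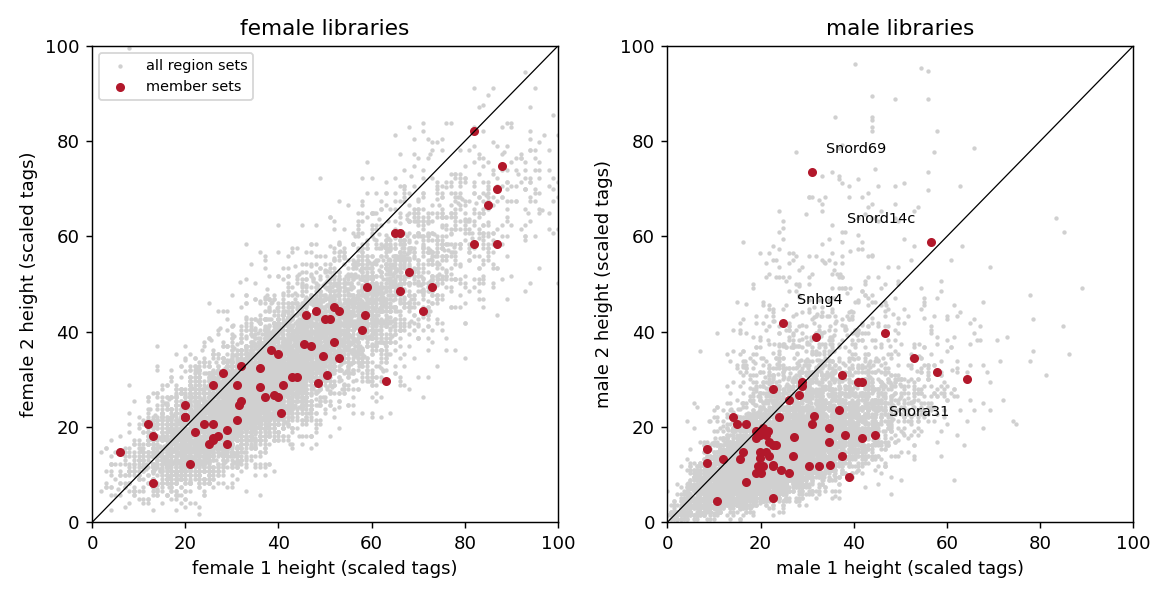
Deposited peak height in the second library of a sex (y axis) against the first (x axis), in scaled tags, for all region sets (grey) and the 64 member sets (red); axes end at 100 and the line marks equal heights. Female member sets follow 1 band, while male member sets scatter, with 13 of 64 above the line, Snord69 among them at 31.1 and 73.4.

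The host genes of the Snhg family gave values of middle size. Snhg12, which holds 4 of the measured snoRNAs, had heights of 26 and 28.8 in females and 20.5 and 11.7 in males (log2 difference -0.56, SE 0.37, limma adjusted p 0.232). Its region had a called peak in male 1 alone and is listed only through that library. Snhg5 had 37 and 26.3 in females and 21.9 and 16.9 in males (-0.51, SE 0.38, adjusted p 0.275 by limma). In both genes the sexes did not overlap and male 2 was lowest. Snhg3, host of Snora73a and Snora73b (U17, needed for cleavage of the ribosomal RNA precursor), had 36 and 28.4 in females and 26.9 and 14.0 in males (-0.52). Snhg9, whose start lies beside that of the ribosomal protein gene Rps2 on the opposite strand and whose set includes Snora64 and Snora78, had 50 and 42.7 against 35.0 and 12.1 (-0.86). Snhg6, with Snord87, had 52 and 37.8 in females and 38.9 and 9.55 in males (-0.84). The sexes overlapped in Snhg6, where male 1 exceeded female 2, and did not overlap in Snhg3 and Snhg9. Snhg7, with Snora17 and Snora43, had 39 and 26.7 against 17.0 and 20.6 (-0.58), and here male 1 was the lowest library.

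Regions at other genes entered the values of Snhg1 and Snhg4, as they did in Snhg3, Snhg7 and Snhg9. Snhg1 is the host of several box C/D snoRNAs, and its averaged height was 31.5 and 24.7 in females and 19.8 and 13.6 in males (log2 difference -0.53, SE 0.37, limma adjusted p 0.248). Snord22 (U22, required for 18S ribosomal RNA processing), in an intron of Snhg1, was linked to the start region alone, with 47 and 37.0 in females and 26.2 and 10.3 in males (-0.96). That start region lay 6 bp from the start of Snhg1 and itself holds a start of the amino acid transporter gene Slc3a2. Subtracting the start region left 16, 12.3, 13.4 and 16.9 for the other region of Snhg1. The other region, at chr19:8713457-8713779, lay 118 bp from a further start of Slc3a2. Thus heights of the start region were highest in female 1 and lowest in male 2, while the sexes overlapped in the other region. The set of Snhg4 and Snora74a had 31 and 28.8 in females and 24.7 and 41.9 in males (0.09, SE 0.40, limma adjusted p 0.844), so male 2 was the highest library and male 1 the lowest. Both of its regions lay within 1 kb of the start of Matr3, a nuclear matrix protein gene, and the nearer was 8586 bp from the start of Snhg4. Over the 8 Snhg genes the median difference relative to all genes was 0.08.

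Averaging over regions also separated snoRNAs of a single host. Snord49a and Snord49b, in the noncoding gene 2410006H16Rik, had the region at its start alone, with heights of 73 and 49.3 in females and 37.5 and 14.0 in males (log2 difference -1.08, SE 0.41, limma adjusted p 0.110). Snord65, in the same host, averaged that region with another that lay 9207 bp from Snord65 and had 26, 20.6, 11.3 and 8.08 by subtraction. Its own values were 49.5 and 34.9 in females and 24.4 and 11.0 in males (-0.97). All these values were in the same order, female 1 highest and male 2 lowest. Snord1c had the start region of Snhg16 with 29 and 16.4 in females and 19.1 and 17.6 in males (-0.19), and Snord1a and Snord1b averaged it with a region 8111 bp from Snord1a (26 and 17.7, then 19.4 and 11.7, difference -0.33). In Snord1c both males lay between the females.

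**Figure D3:**
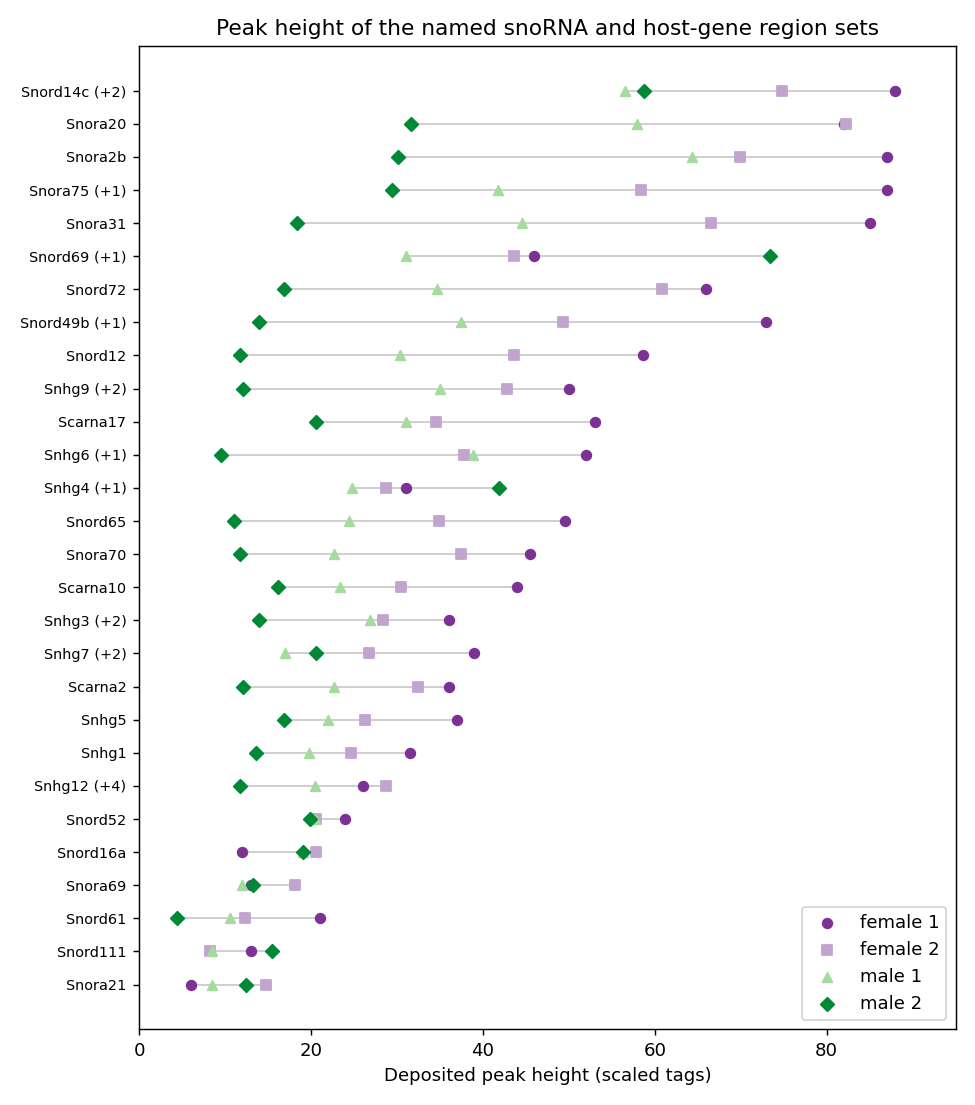
Deposited peak height in scaled tags (x axis) of 28 named region sets (y axis, ordered by mean; the number of further members of the set in brackets), with 1 symbol per library. In most sets female 1 is highest and male 2 lowest, and in Snord69 (73.4), Snhg4 (41.9) and Snord111 (15.4) male 2 is highest.

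The most negative differences were those of Snora31, Snord72, Snord49a with Snord49b, Snord12, Snora70 and Snord65. Snora31, in an intron of Tpt1 (translationally controlled tumour protein), had 85 and 66.6 in females and 44.5 and 18.4 in males (log2 difference -1.14, SE 0.41, limma adjusted p 0.104). Snord72, in the ribosomal protein gene Rpl37, had 66 and 60.8 against 34.6 and 16.9 (-1.11, SE 0.41, adjusted p 0.108 by limma). Snord12, in the noncoding host Zfas1, had 58.7 and 43.6 in females and 30.4 and 11.7 in males (-1.06, limma adjusted p 0.110). In these sets the sexes did not overlap, and the ratio of male 2 to male 1 was below the median ratio of the member sets, 0.698. Snora70, in the X-linked ribosomal protein gene Rpl10, had 45.5 and 37.4 in females and 22.6 and 11.7 in males (-0.97, limma adjusted p 0.118). Snord12 averaged 3 regions, 1 of them at the start of Znfx1 and another 6639 bp from Snord12. Snora70 averaged a region 9 bp from the start of Rpl10 with another 39 bp from a start of Dnase1l1. The other X-linked sets were Snord61 in Rbmx, an RNA-binding protein gene, with 21 and 12.3 against 10.6 and 4.41 (-0.64), and Snora69 in Rpl39, with 13 and 18.1 against 12.0 and 13.2 (-0.18). The sexes overlapped in Snora69 and not in Snora70 or Snord61. Snord61 had a called peak in female 1 alone, so its region is listed only through the library where it is highest. These 6 members were chosen as the ends of the range or for low height, and their order is a description.

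At the other end, male 2 lay above male 1 in Snord69, Snhg4, Snord111 and Snora21 and about equalled it in Snord16a. Snord52, also among the 6 highest differences, had male 2 slightly below male 1 (19.8 and 20.5). Snord69 and Snord19, in Gnl3 (nucleostemin, a nucleolar GTP-binding protein), had 46 and 43.6 in females and 31.1 and 73.4 in males (log2 difference 0.10, SE 0.41, limma adjusted p 0.841). Male 2 was the highest library and male 1 the lowest, and without male 2 the difference was -0.42. The region spans the starts of Gnl3 and of Pbrm1 on the opposite strand. Snord111, in the splicing factor gene Sf3b3, had 13 and 8.22 in females and 8.48 and 15.4 in males (0.09). Its region also lies within 1 kb of a start of Cog4. Snora21, in Rpl23, had 6 and 14.8 against 8.48 and 12.5 (0.04). Snord16a, in Rpl4, had 12 and 20.6 against 19.1 and 19.1 (0.17, SE 0.36, limma adjusted p 0.681), and its region lay 14 bp from the start of the neighbouring gene Snapc5 and not at Rpl4. The sexes overlapped in Snord69, Snord111, Snora21 and Snord16a. Snord111, Snora21 and Snord16a, like Snora69, had a called peak in male 2 alone. Their regions are thus listed through that library only, and they are part of the count that follows. Male 2 was above male 1 in 22 of 95 members (23.2%), in 13 of the 64 sets, against 14.3% of all genes. By host class, male 2 exceeded male 1 in 5 of 19 sets with a ribosomal protein host, 0 of 12 with a noncoding host and 4 of 12 with another coding host. It did so in 1 of 5 with a nucleolar protein host, 0 of 5 with a translation factor host, 1 of 3 with no host and 2 of 8 Snhg sets. A set that holds an Snhg gene was counted as an Snhg set only. The snoRNAs of the noncoding hosts Snhg4 and Snhg7, where male 2 exceeded male 1, are thus not among the 12.

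The sets with the highest mean heights lay at chaperone, chromatin and nucleolar protein genes, among others, and at Tpt1. Snord14c, Snord14d and Snord14e (U14, needed for 18S ribosomal RNA processing), in the chaperone gene Hspa8, had 88 and 74.8 in females and 56.5 and 58.7 in males (log2 difference -0.44, SE 0.41, limma adjusted p 0.364). Snora20, in the chaperonin subunit gene Tcp1, had 82 and 82.2 against 58.0 and 31.6 (-0.81, SE 0.41, adjusted p 0.158 by limma). Snora2b, in Kansl2, a subunit gene of a histone acetyltransferase complex, had 87 and 69.9 against 64.3 and 30.1 (-0.70). The sexes did not overlap in these 3 sets, and male 2 equalled or passed male 1 at Hspa8 alone. Snora75 and Snord82, in the nucleolin gene Ncl, had 87 and 58.4 in females and 41.7 and 29.4 in males (-0.87). Here too both males were below both females.

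The host classes overlapped widely in their differences. Median differences relative to all genes were 0.12 for the 19 sets with a ribosomal protein host, 0.08 for the 12 with a noncoding host, 0.08 for the 5 with a nucleolar protein host, -0.02 for the 5 with a translation factor host and -0.00 for the 12 with another coding host. By name, over genes with repeats, they were 0.21 for Snord, 0.03 for Snora, 0.08 for Snhg and -0.05 for Scarna genes. Sets with no region at a host or own start had a median of 0.39, those at a host start 0.05 and those at the member's own start 0.06. Differences between classes were not tested, since sets are not replicates.

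**Figure D4:**
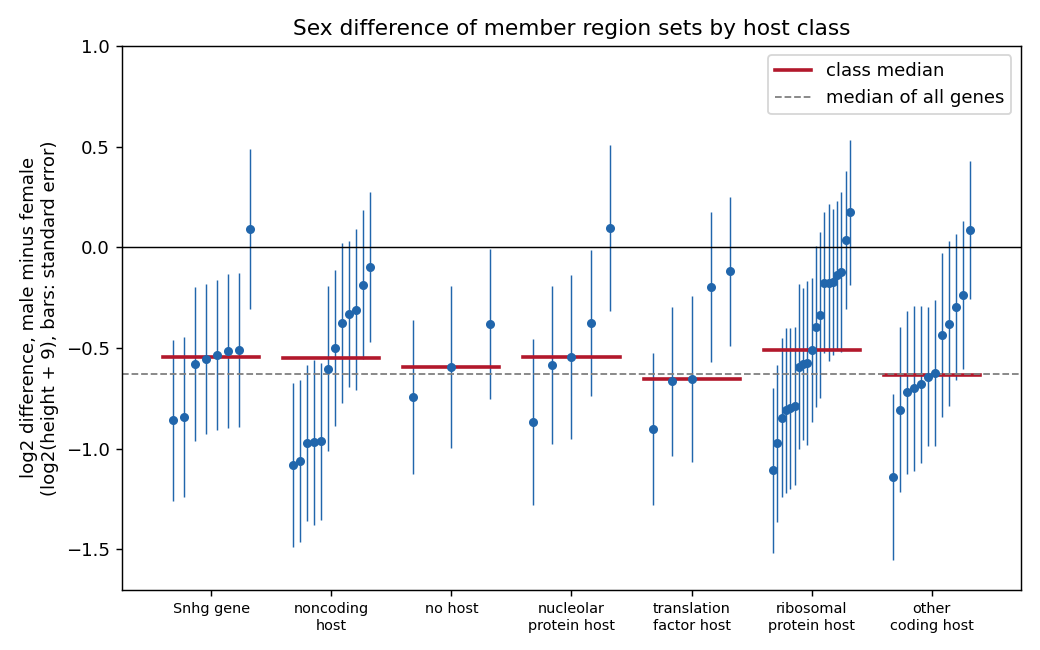
Log2 difference, male minus female, of log2(height + 9) (y axis) for each of the 64 member sets by host class (x axis), with standard errors from limma; red lines are class medians and the dashed line is the median of all genes (-0.63). The classes overlap, and each class median lies between -0.65 and -0.51.

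The Cajal body RNAs had differences close to that of all genes. Scarna2, which guides modification of the U2 spliceosomal RNA and has no host on its strand, had 36 and 32.5 in females and 22.6 and 12.1 in males (log2 difference -0.74, SE 0.38, limma adjusted p 0.162). Its average joined a region 284 bp from its own start (24, 27.1, 16.3 and 12.5) with a region at the start of Tmem167b (48, 37.8, 29 and 11.7, by subtraction). Scarna10, in the condensin gene Ncapd2, had 44 and 30.4 against 23.3 and 16.2 (-0.68). Scarna17 had 53 and 34.5 against 31.1 and 20.6 (-0.59), from a region that also holds the start of Acaa2, a gene of mitochondrial fatty acid oxidation. In all 3, both males were below both females.

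Some regions linked to a member lay at another gene. The region of Snora52, a snoRNA of the ribosomal protein gene Rplp2, lay 15 bp from the start of Pnpla2, which encodes the main triglyceride lipase of fat cells, at chr7:141455070-141455173. Its heights were 63 and 29.6 in females and 32.5 and 11.7 in males (log2 difference -0.84), so that male 1 exceeded female 2. A peak was called in female 1 alone, so this region too is listed only through the library where it is highest. Snord52 had its region 139 bp from the start of the heat shock gene Hspa1b, with 24 and 20.6 in females and 20.5 and 19.8 in males (-0.10), a nearly flat set. Snord32a, Snord33, Snord34 and Snord35a of Rpl13a had a region at the start of Flt3l, with 25 and 16.4 against 21.2 and 14.7 (-0.14), and the sexes overlapped. Snord13 (U13), which guides acetylation of 18S ribosomal RNA and is transcribed from a promoter of its own, had 31 and 21.4 in females and 14.1 and 22.0 in males (-0.38), and its region also holds a start of Tti2. In Snord13 male 2 lay between the females.

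In male 2 the share with a called peak was larger for members than for all genes. Among the 95 members, 79, 70, 65 and 65 had a peak in female 1, female 2, male 1 and male 2 (83.2%, 73.7%, 68.4% and 68.4%), against 89.7%, 76.7%, 61.2% and 49.1% of all genes. By set, a peak was called at 53 of 64 member sets in female 1 (82.8%), 48 (75.0%) in the other female, 43 (67.2%) in male 1 and 45 (70.3%) in male 2. For all 9357 sets the shares, in the same order, were 89.9%, 77.1%, 60.9% and 47.8%, and for the 7385 sets within 1 kb of a gene start they were 92.1%, 79.8%, 66.1% and 52.5%. The member shares were thus lower than those of sets near a start in female 1 and higher in male 2. A peak in all 4 libraries was present for 38 of 95 members (40.0%), against 35.9% of all genes. A peak in male 2 alone was present for 5 members in 5 sets (Snord37, Snora21, Snord111, Snord16a and Snora69), 5.26% of the members against 2.15% of all genes, and 3 of these sets had a ribosomal protein host. The difference in shares was not tested, and peak calls move with depth and background of a library.

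**Figure D5:**
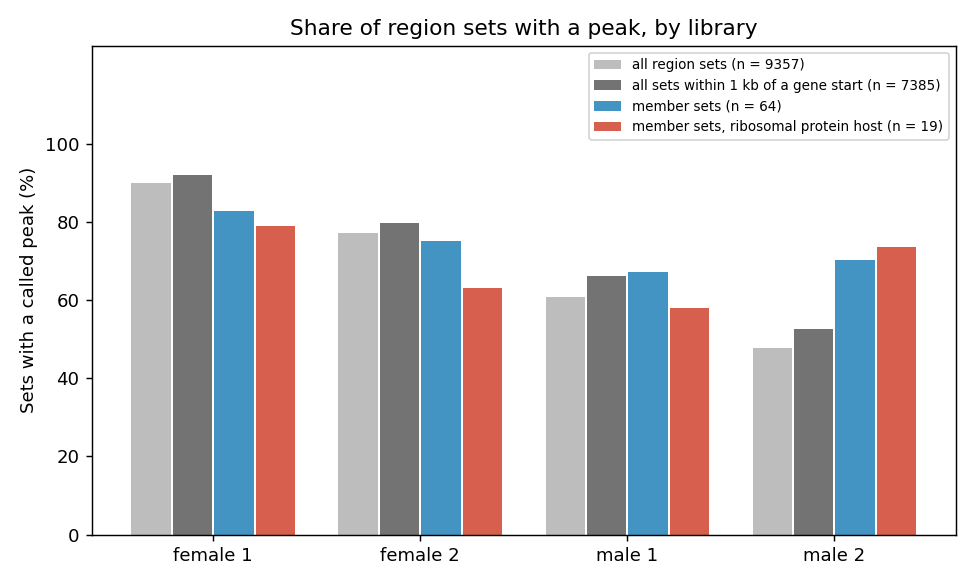
Percent of region sets with a called peak (y axis) in each library (x axis) for all sets, sets within 1 kb of a gene start, member sets and member sets with a ribosomal protein host. In male 2 the member bar is at 70.3% and the bar of sets near a start at 52.5%, while in female 1 the order is reversed (82.8% and 92.1%).

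No gene of the snoRNA machinery or host lists passed the limma threshold. At an unadjusted limma p under 0.05, 31.4% of all genes were lower in males, and the counts below stand beside that share. Of the box C/D core proteins 3 were measured, 1 of them with an unadjusted limma p under 0.05, with a median relative to all genes of 0.04. Fibrillarin (Fbl), the methyltransferase, had 44 and 32.1 in females and 20.5 and 12.1 in males (log2 difference -0.90, SE 0.38, limma adjusted p 0.130), and Nop56 and Nop58 carry the sets of Snord57, Snord110 and Snord70 and so the same values. Of the 4 measured box H/ACA core genes 2 had an unadjusted limma p under 0.05, and 1 lay above the median of all genes; their median relative to all genes was -0.17. Dkc1, the pseudouridine synthase, had 32 and 45.2 in females and 23.3 and 12.5 in males (-0.84), and Nhp2 had 54 and 27.1 against 27.6 and 10.3 (-0.85). The sexes overlapped in Nhp2 and not in Fbl or Dkc1. Of 23 measured assembly and Cajal body genes, 7 (30.4%) had an unadjusted limma p under 0.05, all lower in males. Xpo1, the export receptor that also acts in snoRNA transport, had 106 and 85.5 in females and 48.1 and 20.2 in males (-1.35, SE 0.41, limma adjusted p 0.075), the nearest to the threshold in these lists. The assembly factor genes Shq1 (26 and 19.7 against 13.8 and 4.77, difference -0.84) and Naf1 (32 and 20.6 against 15.6 and 7.34, difference -0.80) did not pass. Of a list of 66 measured snoRNA host genes, 29 (43.9%) had an unadjusted limma p under 0.05, all lower in males, against 31.4% of all genes. The median of the 66 relative to all genes was -0.09. Many of these hosts, among them Tpt1, Rpl37, Rpl10 and Ncl, carry the set of a member and so the same values. This share is therefore not separate from that of the members, and Ncl also stands on the assembly list. Chd8, a chromatin remodeller gene that hosts snoRNAs outside the measured members, had 33 and 58.4 in females and 24.7 and 7.34 in males (-1.18, limma adjusted p 0.094).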

How the data were processed

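Per the labels' protocols, DNA of Tn5-treated nuclei went through 10 cycles of PCR. The submitters' processing notes name BWA, MACS2 2.1.0 and mm10; read filters and any Tn5 shift are not stated there. The deposited signal, tag height at a peak, was scaled per library and averaged over a gene's merged regions by the authors, per the file headers; other deposited columns (peak flags, distances, region positions, and the female heights written with a decimal comma) were read as they stand. Per-library columns left unused numbered 0.

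Heights above 0 in at least 2 libraries were required (all 95 members met this), transformed as log2(height + 9) and compared with limma 3.58.1 (trend) in R 4.3.3, sex only, Benjamini-Hochberg over 11993 genes, threshold 0.05, two-sided; fold changes of low genes are understated. The fit was tested on simulated data. Region heights came directly from single-region genes (49 of 82) or by subtraction (7), and 26 were not resolved. All 95 gene IDs matched RefSeq GRCm38.p6. Python 3.11.15, pandas 2.3.3, numpy 2.4.6 and matplotlib 3.10.9 were used.

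Members, lists and tests were chosen with earlier results of these data known. Named are each Snhg and Scarna set, the 6 lowest and 6 highest differences, the 6 highest and 4 lowest mean heights, and of each list up to 3 genes with the smallest p; 1 set that this rule names is not reported here. Snora52, Snord13, Snord22, Snord1a, Snord1b, Snord1c, Snord37, Snora3, the set of Snord32a and the snoRNAs of Nop56 and Nop58 were added after their values were seen. No source names a pairing by replicate number, so the numbers were not taken to pair libraries. Same-numbered libraries had a correlation of deviations of 0.017. With 2 libraries a sex both pairs give the same value. A shift shared by all genes also drops out of a correlation, so it cannot decide whether the libraries are paired. Alternatives covered the pseudocount, filters, scaling, variance settings, the replicate block, members entering, windows and each library left out.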

Additional observations from a re-analysis of the deposited data

How the results depend on the processing

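The result that 0 members were called higher in males held under each of the 14 alternatives of the fit. The count called lower was 0 in the main analysis, 1 without the variance trend, and 45 with the replicate block. With the block, 57.7% of all genes were called lower and 0.0584% higher. No share of all genes stands beside the count without the trend, so it is not read as a result about the members. The count of members called lower also rose without male 1, as did that of all genes, and the causes were not tested. The number 1 or 2 of the libraries is a shared number only (2 pairs), so a crossed pairing was not run. The median log2 difference of the members, -0.56, was -0.29 with a pseudocount of 36, 0.0625 with libraries centred on their medians and 0.0469 with quantile normalization, and ranged from -0.80 to -0.36 when 1 library was left out. Relative to all genes it lay between 0.04 and 0.12 under every alternative. Centring and quantile normalization, which remove the library-wide shift by construction, turned the sign of 9 named sets. Centred and then quantile values were 0.52 and 0.50 for Snord52, 0.44 and 0.40 for Snora69, 0.18 and 0.0748 for Snord14c, 0.11 and 0.10 for Snhg5, 0.10 and 0.10 for Snhg3, 0.0839 and 0.0646 for Snhg1, 0.0625 and 0.0377 for Snhg12, 0.0383 and 0.025 for Snhg7, 0.0246 and 0.0414 for Scarna17. The sign also turned for sets near 0 with a library left out, where the range over the 4 was -0.30 to 0.37 for Snora21, -0.0732 to 0.42 for Snord16a, -0.15 to 0.33 for Snord111, -0.42 to 0.62 for Snord69 and -0.20 to 0.39 for Snhg4. Member sets with both males below both females numbered 47, and with male 2 or male 1 alone (chosen after seeing the data) 53 or 52; over genes the shares were 84.2% and 78.9% of members against 91.6% and 80.6% of all genes. With at least 50% of a region covered, sets with a peak numbered 43, 33, 29 and 43 in female 1, female 2, male 1 and male 2. No share over all region sets stands beside these counts, so they are not read as a trait of the members. The rule also depends on interval width, with a median of 284 bp in male 2 against 160 to 171 bp in the others. Restricting to members with no region shared with another gene left Snhg5 alone. With 2 libraries a sex, heights of unknown depth and shared regions, differences within the members smaller than the limma SE of about 0.4 could not be told from the spread. Larger ones did not pass the threshold of the main analysis either, and Snora31, at -1.14, had a limma adjusted p of 0.104.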

Other observations

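Other short noncoding RNA genes were measured beside the snoRNAs. None of 10 measured genes on a list of small nuclear, Y, 7SK and related RNA genes passed the limma threshold (4 had an unadjusted p under 0.05, all lower in males, 40.0% against 31.4% of all genes), and their median difference relative to all genes was 0.10, or 0.06 with the shared set of Rny1 and Rny3 taken a single time. Rmrp, the RNA of RNase MRP, which cuts the ribosomal RNA precursor, had heights of 75 and 51.8 in females and 39.6 and 19.8 in males (log2 difference -0.93, SE 0.41, limma adjusted p 0.135). Rnu3b1, a gene of the U3 snoRNA, had 37 and 23.02 against 16.3 and 8.08 (-0.89, limma adjusted p 0.124), and Rn7sk had 47 and 36.6 against 26.5 and 14.0 (-0.82). The sexes did not overlap in these 3 genes. The Y RNA genes Rny1 and Rny3 share a set, with 10 and 9.04 in females and 9.19 and 11.7 in males (0.07), where the sexes overlapped. Rnu73b, also on this list, carries the set of the member Snord73a and so the same values.

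Of 14 measured genes on a list of other, mostly long, noncoding RNA genes, 0 passed the limma threshold. In 5 (35.7%) the unadjusted limma p was under 0.05, all lower in males, against 31.4% of all genes. The median relative to all genes was 0.02. Rmrp and Rpph1, both among the 5, also stand on the list of short RNA genes with the same values. Dancr shares its set with the member Snora26. Ftx, an X-linked gene, had 39 and 36.6 in females and 18.02 and 13.2 in males (log2 difference -0.93, SE 0.38, limma adjusted p 0.122). Rpph1, the RNA of RNase P, had 56 and 60.8 against 27.6 and 30.1 (-0.83), and in it male 2 lay above male 1 while both stayed below both females.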
